A study of Mus musculus with 11 samples.

Results

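The heme, iron and NRF2 antioxidant genes examined here are 10 of the 55487 genes in the deposited expression table: Hmox1, Slc40a1, Tfrc, Fth1, Ftl1, Gclc, Gclm, Txnrd1, Srxn1 and Nqo1. They were picked by gene symbol with the levels and fold changes of these same libraries in view, so the fold changes and p-values given for them describe rows of a fit of all genes and are not independent evidence. The study asked how FGF21, a secreted metabolic hormone made by tumour cells, acts on CD8+ T cells in the tumour. The tumours were grown from MC38 cells, a line from a mouse colon carcinoma, that carried either a control short hairpin RNA (shNC, genotype label WT) or one against Fgf21 (shFgf21, genotype label FGF21 Knockdown). Bulk RNA sequencing covered T cells sorted from tumours of these lines (3 shNC and 2 shFgf21 libraries) and libraries labelled as tumour, cell line MC38 (3 shNC and 3 shFgf21). The genotype label of shFgf21 sorted replicate 2 names FGF22, and since its title is built like that of the other shFgf21 sorted library it was kept in the group. Titles of sorted libraries join several numbers, some of which recur in tumour titles, and the replicate numbers used here for sorted libraries are not those title numbers. Whether sorted and tumour libraries share animals is not given, and the fits over both kinds treated them as unpaired. How material was pooled is not given in the sources used here, nor are mouse strain, age, the number of hairpins or clones, or whether replicates came from separate animals. The p-values therefore cover no more than the library-to-library spread, part of which may be technical.

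Heme oxygenase opens the heme ring and frees its iron, and the freed iron is stored in ferritin or leaves the cell through ferroportin. Iron enters most cells as transferrin through the transferrin receptor. When iron is scarce, iron regulatory proteins bind hairpins called iron-responsive elements, which blocks translation of ferritin and ferroportin mRNA and stabilises transferrin receptor mRNA. NRF2 is a transcription factor that oxidants and electrophiles release from its inhibitor KEAP1, and it binds antioxidant response elements near genes for glutathione synthesis, thiol reduction, quinone reduction and heme breakdown. BACH1 is a heme-binding repressor that competes for these elements. Macrophages that take up red cells are known for high heme oxygenase and ferroportin, and proliferating cells for high transferrin receptor.

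The iron-responsive elements of the iron genes are shown because Tfrc and Fth1 were the only tested members whose tumour groups did not overlap. They were found in the untranslated regions of GENCODE M21 transcripts (mm10) on the transcript strand, as a C, 5 bases of any kind and the loop CAGTGN, followed by 5 bases that pair with those before the loop, and the loop letters are in capitals.
Tfrc, 3′ UTR, chr16:32631220-32631246, plus strand: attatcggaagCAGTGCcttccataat
Tfrc, 3′ UTR, chr16:32631599-32631625, plus strand: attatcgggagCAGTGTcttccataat
Tfrc, 3′ UTR, chr16:32631664-32631690, plus strand: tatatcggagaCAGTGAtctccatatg
Tfrc, 3′ UTR, chr16:32631711-32631737, plus strand: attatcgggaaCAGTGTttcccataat
Fth1, 5′ UTR, chr19:9982733-9982759, plus strand: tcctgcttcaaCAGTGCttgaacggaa
Ftl1, 5′ UTR, chr7:45459780-45459806, minus strand: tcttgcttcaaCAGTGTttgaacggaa
Slc40a1, 5′ UTR, chr1:45925466-45925492, minus strand: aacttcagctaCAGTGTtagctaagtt
Tfrc was the one member with 4 such hairpins, all downstream of its coding sequence, while Fth1, Ftl1 and Slc40a1 had 1 each, upstream of theirs. The same search matched 19 of 19933 5′ UTRs (0.0953%) and 104 of 20577 3′ UTRs (0.505%) of the annotation, whereas the loop letters without the pairing matched 8.20% and 31.5%. No paired match was found in the untranslated regions of the other 6 members.

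The antioxidant response element core, TGACNNNGC on either strand, was searched in RefSeq promoter windows (GRCm38.p6, 250 bases before to 50 after a start site) and is shown in capitals for the NRF2 target genes that held it.
Srxn1, chr2:152105544-152105568, minus strand: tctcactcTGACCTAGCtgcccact
Gclm, chr3:122245415-122245439, minus strand: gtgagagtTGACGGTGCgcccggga
Txnrd1, chr10:82859106-82859130, minus strand: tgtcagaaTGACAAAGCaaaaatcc
The table had windows for 7 of the 10 members, 11 windows in all, and 3 of these held the core. Of all 32851 windows, 4071 (12.4%) held it, so these matches describe the sequence and are not called sites. Hmox1, Gclc and Slc40a1 had no window in the table.

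Library totals ran from 14944013 to 19099350 counts, and a count of 0 allows up to 3 counts, which is 0.157 to 0.201 CPM (counts per 1000000 counts of the library), a limit that covers counting error only. Fgf21 had 0, 2 and 1 counts in the shNC tumours and 0 in the other 8 libraries, so the knockdown could not be checked at this depth. All 10 T cell markers had counts in every sorted library, at a summed 272 to 574 CPM of the library total, but the 12 macrophage and monocyte markers summed to 10933 to 13300 CPM in shNC and 16437 to 17326 CPM in shFgf21 sorted libraries. The 6 fibroblast and tumour-type matrix genes summed to 10691 to 12473 CPM in the sorted libraries and 13640 to 17443 CPM in tumours. The tumour libraries held 7.60 to 24.9 CPM of the macrophage list and 1.10 to 2.34 CPM of the T cell list, so both were near 0 in libraries labelled as tumour tissue. Not every leukocyte list was lower there. The 5 dendritic cell markers summed to 9.58 to 15.8 CPM in tumours, mostly Zbtb46, and 9.19 to 14.7 CPM in sorted libraries. The 4 iron-recycling macrophage markers, mostly Vcam1, summed to 200 to 402 CPM in tumours and 160 to 242 CPM in sorted libraries. In bulk RNA, fewer cells of a type and less RNA per cell cannot be told apart.

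Per transcript length, ferritin was the most abundant of these genes in both kinds of library. In shNC sorted cells the deposited FPKM level, a count of fragments scaled by transcript length and library size, was 511 ± 76.5 for Fth1, 402 ± 75.5 for Ftl1 and 291 ± 118 for Hmox1 (SD, n = 3). The other members lay far below, from 15.4 ± 0.946 for Srxn1 and 14.4 ± 1.30 for Txnrd1 through 9.27 ± 0.900 for Gclc, 6.85 ± 0.792 for Nqo1, 6.34 ± 0.375 for Tfrc and 3.55 ± 0.574 for Gclm to 0.133 ± 0.0509 for Slc40a1. In this order Srxn1 and Txnrd1 differed by less than the larger of their SDs, as did Nqo1 and Tfrc. Ftl1 and Hmox1, whose SD was wide, also did, while Fth1 and Ftl1 differed by more than either SD. The place of Ftl1 is uncertain in both kinds, since reads could be split with Ftl1-ps1, a near-identical listing described below. Ftl1-ps1 had an FPKM level of 1096, 1192 and 1486 in shNC sorted cells and 168, 504 and 355 in shNC tumours. In shNC tumours Ftl1 led at an FPKM level of 298 ± 46.7, ahead of Fth1 at 137 ± 22.1 (SD, n = 3). Hmox1 followed at 43.6 ± 54.9, and Txnrd1, Srxn1, Nqo1 and Gclc lay between 15.1 and 17.4, with neighbours closer than the larger of their SDs. Tfrc at 6.51 ± 1.46 and Gclm at 5.93 ± 2.85 were also within their SDs of each other.

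**Figure D1:**
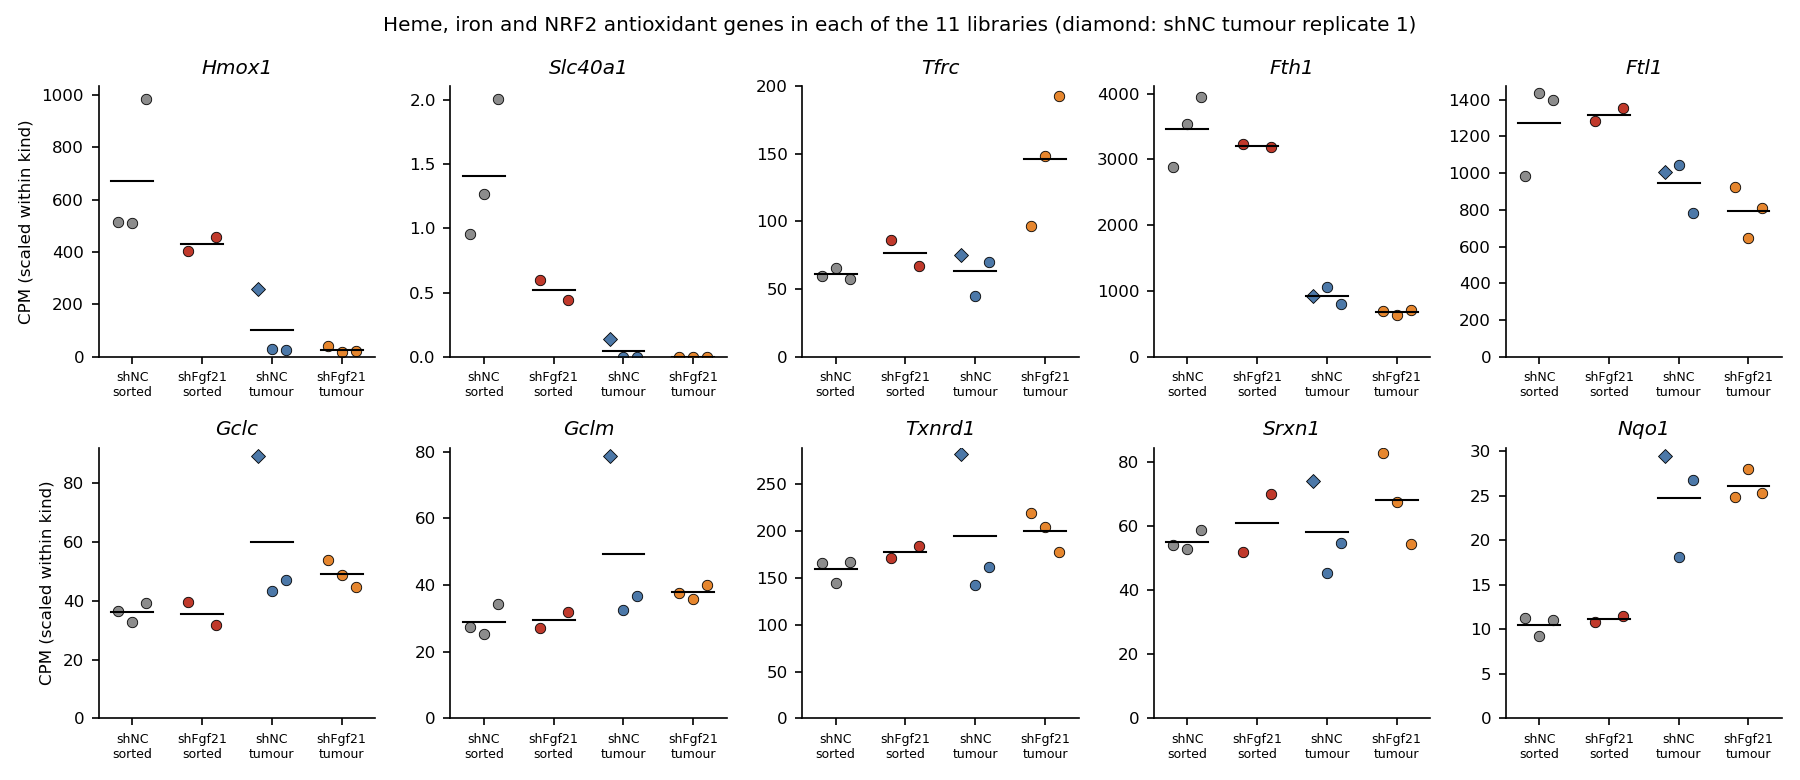
Level of each member in CPM, scaled within sorted cells or within tumours, in each of the 11 libraries, with a point for each library, one column for each of the 4 groups and a line at the group mean. The diamond marks shNC tumour replicate 1, which lies at 258 CPM for Hmox1 while the other 5 tumours lie between 19.8 and 40.8 CPM.

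The first comparison asked which members differed between shFgf21 and shNC within each kind of library. Tfrc was higher in shFgf21 than in shNC in both kinds without overlap of the groups, by 2.30-fold in tumours and 1.26-fold in sorted cells. Fth1 was lower in all 3 shFgf21 tumours than in any shNC tumour, and Hmox1 and Slc40a1 were lower in both shFgf21 sorted libraries than in any shNC sorted library. None of these differences passed the threshold, an adjusted p of 0.05 in edgeR's quasi-likelihood test with Benjamini-Hochberg adjustment over all genes. By this rule 0 of 10 members were called in sorted cells, where 0.0790% of 16454 genes were called (0.0182% higher and 0.0608% lower). In tumours 0 of 9 tested members were called, where 0.0334% of 14950 genes were called (0.0268% higher and 0.00669% lower). Without overlap of the groups, 2 members were higher and 2 lower in sorted cells, where 14.5% and 15.0% of all genes were, and 1 was higher and 1 lower in tumours, where 5.40% and 6.19% were. At an unadjusted p under 0.05 edgeR gave 2 members in sorted cells (all genes 11.2%) and 3 in tumours (all genes 6.22%). DESeq2's Wald test called 0 members in sorted cells and 1, Tfrc, in tumours, and limma voom called 0 in either. Over all genes DESeq2 called far more than edgeR in both kinds, as counted in the section on processing. The median log2 fold change of the members was 0.04 in sorted cells beside -0.01 for all genes, and -0.25 for the 9 tested members in tumours beside -0.01 for all genes. The tumour median turned to 0.13 without shNC tumour replicate 1, with 7 of 9 members higher, and the sorted median ran from -0.04 to 0.12 when each library was left out.

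**Figure D2:**
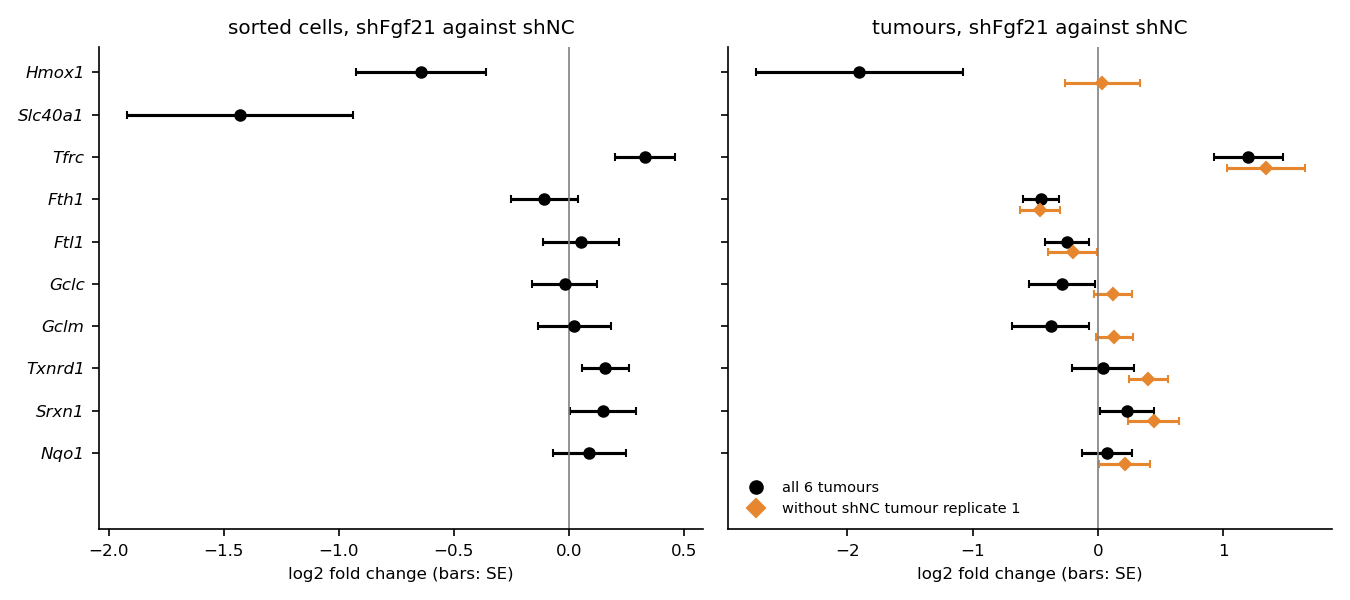
Log2 fold change of each member, shFgf21 against shNC, in sorted cells (left) and tumours (right) from edgeR, with bars of 1 standard error; orange diamonds are the fits without shNC tumour replicate 1. Hmox1 in tumours moves from -1.90 to 0.04 without that library while Tfrc stays above 1, and Slc40a1 has no point in tumours because it was not tested there.

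Hmox1 (chromosome 8, 75093621 to 75100589, mm10) encodes the inducible heme oxygenase. In sorted cells its level was 517, 511 and 986 CPM in the shNC libraries and 403 and 457 CPM in the shFgf21 libraries. Both shFgf21 values lay below all 3 shNC values, and shNC replicate 3 stood well above the rest. The log2 fold change was -0.64 ± 0.28 (SE; edgeR adjusted p = 0.453), and -0.26 ± 0.11 without shNC replicate 3. In tumours Hmox1 was at 258, 28.7 and 25.6 CPM in shNC replicates 1, 2 and 6 and at 40.8, 19.8 and 22.8 CPM in shFgf21 replicates 1 to 3. One library held most of the Hmox1 counts of its group, and the remaining shNC values lay among the shFgf21 values. The tumour log2 fold change of -1.90 ± 0.83 (edgeR adjusted p = 0.801) became 0.04 ± 0.30 without shNC replicate 1 and -0.73 under limma voom with sample quality weights. DESeq2 gave Hmox1 no adjusted p in tumours.

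Slc40a1 (chromosome 1, 45908068 to 45926523), which encodes the iron exporter ferroportin, was detected almost only in sorted cells and at low counts. The shNC sorted libraries held 15, 19 and 34 counts and the shFgf21 sorted libraries 9 and 7, which is 0.956, 1.27 and 2.01 against 0.599 and 0.445 CPM. The groups did not overlap, and the log2 fold change was -1.43 ± 0.49 (SE, from edgeR, with an adjusted p of 0.357). Among tumours, shNC replicate 1 held 2 counts and the other 5 libraries held 0, so no fold change was tested there. Cd163, the macrophage receptor for hemoglobin bound to haptoglobin, was at 25.2, 3.01 and 28.3 CPM in shNC and 2.46 and 1.34 CPM in shFgf21 sorted libraries, also without overlap (log2 fold change -3.31 ± 0.90, edgeR adjusted p = 0.282). It passed the threshold without shNC sorted replicate 2, at -3.82 (edgeR adjusted p = 0.0194). Of the 4 iron-recycling macrophage markers, Cd163 and Cd5l were lower without overlap (all genes 15.0%) and Vcam1 higher (all genes 14.5%), while Spic overlapped. Vcam1 was at 198, 157 and 163 CPM in shNC and 240 and 247 CPM in shFgf21. Cd5l held 0 to 11 counts in the sorted libraries. Of the 12 macrophage and monocyte markers, 9 were higher without overlap in shFgf21 sorted cells and 0 lower (all genes 14.5% and 15.0%). Itgam, Mrc1 and Fcgr1 overlapped. Examples of the 9 are Lyz2, a macrophage lysozyme, at 5455, 6360 and 6719 CPM in shNC and 8848 and 8563 CPM in shFgf21, and Csf1r, the receptor for macrophage colony-stimulating factor, at 385, 482 and 455 against 613 and 756 CPM. The summed macrophage list was higher in both shFgf21 sorted libraries than in any shNC one while Hmox1 and Slc40a1 were lower there, and its part in either result was not tested.

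Tfrc (chromosome 16, 32608920 to 32632794), the transferrin receptor, had the smallest p-value of the members in tumours. Its level was 75.1, 45.3 and 70.1 CPM in shNC replicates 1, 2 and 6 and 96.9, 148 and 193 CPM in shFgf21 replicates 1 to 3. Every shFgf21 tumour lay above every shNC tumour, and the shFgf21 tumours differed among themselves by more than the gap between the groups. The log2 fold change was 1.20 ± 0.27 (SE), with an edgeR adjusted p of 0.443 and a DESeq2 adjusted p of 0.00379. It ran from 0.96 to 1.43 when each library was left out in turn, with edgeR adjusted p-values from 0.275 upward. In sorted cells Tfrc was at 59.7, 65.8 and 57.8 CPM in shNC and 86.5 and 67.1 CPM in shFgf21. The lower shFgf21 library was only just above the highest shNC library, at a log2 fold change of 0.33 ± 0.13 (edgeR adjusted p = 0.418) that became 0.14 without shFgf21 replicate 1.

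Fth1 (chromosome 19, 9980598 to 9985098) encodes the ferritin heavy chain, which oxidises iron for storage. In tumours it was at 920, 1063 and 808 CPM in shNC and 690, 635 and 712 CPM in shFgf21. All shFgf21 tumours were lower, by 1.37-fold, or -0.45 ± 0.14 on the log2 scale (SE; adjusted p = 0.640 in edgeR and 0.345 in DESeq2). Leaving out each library gave -0.54 to -0.34, so shNC tumour replicate 1 did not set this value (-0.46 without it). In sorted cells Fth1 was at 2888, 3532 and 3950 CPM in shNC and 3229 and 3187 CPM in shFgf21, inside the shNC range. The sorted log2 fold change was -0.11 ± 0.15 (edgeR adjusted p = 0.822).

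Because Tfrc and Fth1 differed in opposite directions, their FPKM ratio was computed after their values had been seen, and it has no test. In tumours the level of Tfrc per 1000 FPKM of Fth1 was 57.2, 29.9 and 60.8 in shNC and 98.5, 163 and 190 in shFgf21. In sorted cells it was 14.5, 13.1 and 10.3 in shNC and 18.8 and 14.8 in shFgf21. In tumours the groups of the ratio could not overlap, since each gene alone already separated them, in opposite directions. In sorted cells they did not overlap either, though the lower shFgf21 library was close to the highest shNC one. Every tumour lay above every sorted library. Both transcripts carry the iron-responsive elements printed above, at opposite ends. Whether iron or these elements had a part in the ratio was not tested.

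**Figure D3:**
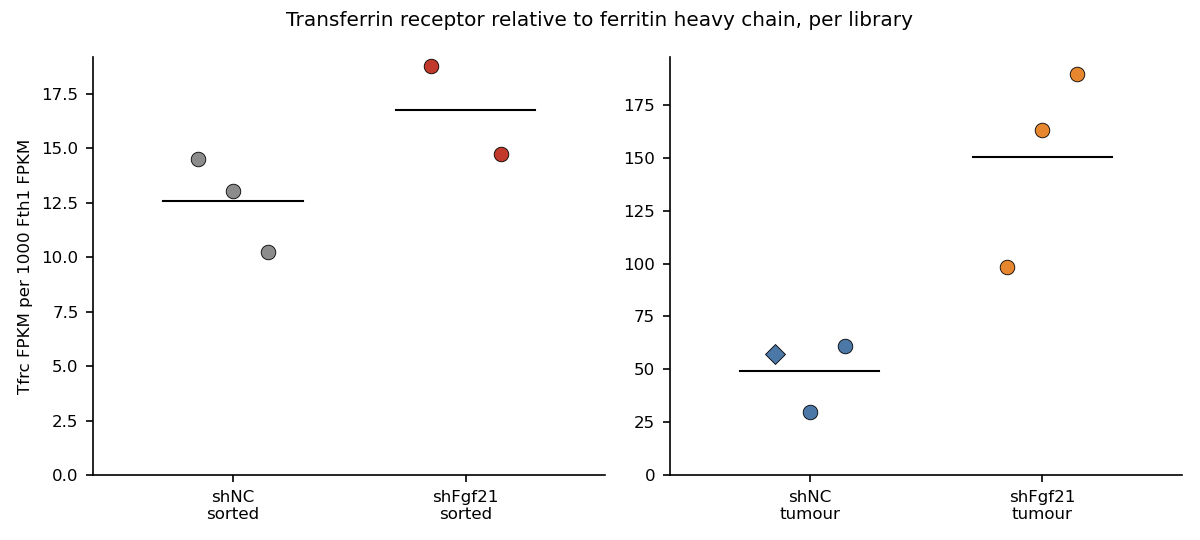
Tfrc FPKM per 1000 Fth1 FPKM in each library, for sorted cells (left) and tumours (right), each axis starting at 0. The 3 shFgf21 tumours sit between 98.5 and 190 and the 3 shNC tumours between 29.9 and 60.8. This tumour separation follows from that of each gene alone.

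The iron regulators around this pair did not pass the threshold either. Ireb2, the iron regulatory protein degraded when iron is plentiful, had a log2 fold change of 0.12 ± 0.16 in tumours and -0.13 ± 0.11 in sorted cells. Fbxl5, the iron-sensing ubiquitin ligase subunit that targets it, was lower without overlap in both kinds, at -0.39 ± 0.13 in tumours (edgeR adjusted p = 0.670) and -0.46 ± 0.15 in sorted cells (edgeR adjusted p = 0.337). Its level was 68.4, 82.7 and 79.9 CPM in shNC tumours against 58.0, 61.7 and 56.6 CPM in shFgf21 tumours.

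Ftl1 (chromosome 7, 45457944 to 45459884), the ferritin light chain, showed overlapping groups in both kinds. It was at 984, 1435 and 1397 CPM in shNC and 1281 and 1355 CPM in shFgf21 sorted cells, and at 1007, 1044 and 783 against 926, 649 and 810 CPM in tumours. The log2 fold changes were 0.05 ± 0.17 in sorted cells and -0.25 ± 0.18 in tumours (SE; edgeR adjusted p = 0.939 and 0.894). These values are uncertain because a near-identical listing exists, between which reads could be split. Annotated transcripts of Ftl1 and Ftl1-ps1 (chromosome 13, 74399694 to 74407346) were identical at 906 of 910 aligned bases, or 99.6%. Ftl1-ps1 took 53.8% to 60.3% of the ferritin light chain counts in sorted libraries and 16.0% to 36.8% in tumours. Gm22133, a listing of type miRNA inside Ftl1, held 1 count in each sorted library and 2543 to 4710 counts in each tumour library. The counting program is not given in the sources used here, and whether it treated the kinds of library alike was not tested. With all light chain listings summed, the log2 fold changes were 0.03 in sorted cells and -0.19 in tumours.

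**Figure D4:**
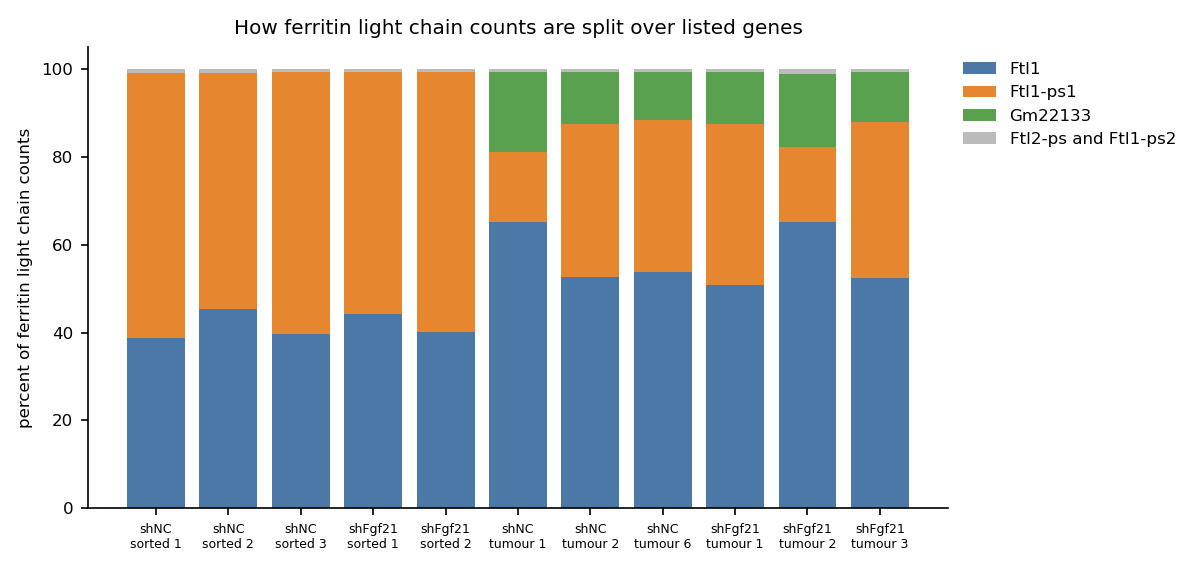
Percent of the ferritin light chain counts of each library that were listed under Ftl1, Ftl1-ps1, Gm22133 and the remaining copies, as stacked bars from 0. Ftl1-ps1 takes over 53% in every sorted library and under 37% in every tumour, and Gm22133 is visible only in tumours.

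Gclc and Gclm encode the catalytic and the modifier subunit of glutamate-cysteine ligase, the first enzyme of glutathione synthesis. Gclc (chromosome 9, 77754535 to 77794485) was at 36.5, 32.7 and 39.1 CPM in shNC and 39.5 and 31.7 CPM in shFgf21 sorted cells, a log2 fold change of -0.02 ± 0.14. Gclm (chromosome 3, 122245557 to 122270732) was at 27.4, 25.4 and 34.2 CPM in shNC and 27.0 and 31.9 CPM in shFgf21 sorted cells, a log2 fold change of 0.02 ± 0.16. Neither subunit separated the sorted groups. In tumours Gclc was at 89.2, 43.4 and 46.9 CPM in shNC and 53.7, 48.6 and 44.8 CPM in shFgf21. Gclm was at 78.6, 32.5 and 36.7 CPM in shNC and 37.7, 35.8 and 40.0 CPM in shFgf21. For both subunits shNC replicate 1 was the highest tumour and shNC replicate 2 the lowest. The tumour log2 fold changes of -0.29 ± 0.26 for Gclc and -0.38 ± 0.31 for Gclm (edgeR adjusted p = 0.931 and 0.915) became 0.12 and 0.13 without shNC replicate 1. Gm17494, an overlapping listing with 764 to 1310 counts, and reads of Gclm cannot be told apart without the strand, which is not given in the sources used here.

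Txnrd1 and Srxn1 belong to the thiol branch: thioredoxin reductase recharges thioredoxin, and sulfiredoxin repairs over-oxidised peroxiredoxins. Txnrd1 (chromosome 10, 82833951 to 82897712) was at 166, 145 and 167 CPM in shNC and 171 and 184 CPM in shFgf21 sorted cells, without overlap but by a log2 fold change of only 0.16 ± 0.10 (edgeR adjusted p = 0.611). In tumours it was at 282, 142 and 161 CPM in shNC and 220, 204 and 178 CPM in shFgf21, so that shNC held both the highest and the lowest library. The tumour log2 fold change of 0.04 ± 0.25 (edgeR adjusted p = 0.99) became 0.40 ± 0.16 without shNC replicate 1 (edgeR adjusted p = 0.421). Srxn1 (chromosome 2, 152105516 to 152111376) was at 54.1, 52.8 and 58.8 against 52.1 and 70.2 CPM in sorted cells and at 74.1, 45.4 and 54.8 against 82.7, 67.6 and 54.3 CPM in tumours. Its groups overlapped in both kinds, at log2 fold changes of 0.15 ± 0.14 and 0.23 ± 0.22, and the tumour value became 0.45 without shNC replicate 1.

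Nqo1 (chromosome 8, 107388225 to 107403206), the quinone reductase often read as an indicator of NRF2 activity, showed overlapping groups in tumours and nearly equal levels in sorted cells. It was at 11.2, 9.22 and 11 CPM in shNC and 10.8 and 11.5 CPM in shFgf21 sorted cells. In tumours it was at 29.4, 18.2 and 26.8 CPM in shNC and 24.9, 28.0 and 25.3 CPM in shFgf21. The log2 fold changes of 0.09 ± 0.16 and 0.07 ± 0.20 were within 1 SE of 0 (edgeR adjusted p = 0.871 and 0.979).

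Both shNC replicate 1 and shNC replicate 2 stood at an end of the tumour range for most members. Of the 9 tested members, 5 had their highest tumour value in shNC replicate 1, where 18.7% of all 14950 tested genes did. In shNC replicate 2, 6 had their lowest tumour value and 2 their highest, where 23.8% and 23.1% of all genes did. Hmox1, Gclm and Gclc exceeded the next tumour by more than 1.5-fold in replicate 1, as did 292 of all tested genes (1.95%). Against the mean of the other 5 tumours, replicate 1 was 9.39-fold higher for Hmox1, 2.15-fold for Gclm, 1.88-fold for Gclc and 1.56-fold for Txnrd1, but 1.18-fold for Fth1 and 0.679-fold for Tfrc. Slc7a11, the cystine importer and an NRF2 target, was at 71.6 CPM in it and 17.9 to 46.3 CPM in the other tumours. Hp, which encodes haptoglobin, was at 21.8 against 1.22 to 3.71 CPM, and Lcn2, a siderophore-binding protein, at 23.1 against 1.03 to 4.26 CPM. The same library held 1350 CPM of Col1a1 and 1087 CPM of Col1a2, genes of fibrillar collagen, against 248 to 456 and 36.8 to 172 CPM in the others. The rest of the matrix list did not follow. Col3a1, also of fibrillar collagen, was at 3767 CPM in it and 2842 to 4197 CPM in the others. Fn1 and Vim also lay inside the range of the others, and Pdgfrb was lowest in it, at 211 CPM. This library held 16595 CPM of the 6 matrix genes summed, beside 13640 to 17443 CPM in the others. Its 12 macrophage markers summed to 24.9 CPM beside 7.60 to 15 CPM in the others, its 4 endothelial markers to 11.2 beside 0.861 to 2.77 CPM, while Csf1r was at 0.413 CPM in it and 0.122 to 0.715 CPM in the others. The part of other cells in this library's levels was not tested.

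In sorted cells shNC replicate 3 was the highest library for 4 of 10 members, where 18.3% of all genes were. It was 2.09-fold above the mean of the other 4 for Hmox1 and 2.46-fold for Slc40a1, but 0.828-fold to 1.23-fold of that mean for the other members. Its T cell markers summed to 272 CPM, the lowest of the sorted libraries. The digits in its title include that of shNC tumour replicate 1, and whether the libraries share an animal is not given.

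The second comparison asked whether the shFgf21 difference itself differed between sorted cells and tumours, tested as the interaction term of one model over the 4 groups. Of 10 members 0 passed, where 0.00577% of 17327 genes did, and at an unadjusted p under 0.05 edgeR gave 1 member (all genes 4.77%), while DESeq2 called 0. That member was Tfrc, whose log2 fold change was lower in sorted cells by 0.86 ± 0.36 (unadjusted p = 0.0334, edgeR adjusted p = 0.99997). Fth1 differed by 0.36 ± 0.21 and Hmox1 by 1.26 ± 1.06, and the Hmox1 value became -0.66 without shNC tumour replicate 1. No member's difference between the kinds passed the test, which does not show that the effects were alike.

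The third comparison set shNC sorted libraries against shNC tumours, which differ in cell content as the marker sums show. The kinds also differed in the split of ferritin light chain counts, with Gm22133 at 1 count in each sorted library and 2543 to 4710 in each tumour. A difference in library preparation or counting therefore cannot be told apart from one of kind here. Hmox1, Fth1, Ftl1 and Slc40a1 were higher in sorted cells and Nqo1 was lower, so 5 of 10 members passed the threshold, where 33.4% of 17327 genes did (20.3% higher and 13.1% lower). At an unadjusted p under 0.05 edgeR gave 7 members (all genes 42.9%), and without overlap 4 were higher and 2 lower (all genes 25.6% and 20.6%). On levels scaled over all 11 libraries, Fth1 stood at 3647 ± 562 CPM in sorted cells and 884 ± 129 CPM in tumours (SD, n = 3), a log2 difference of 2.04 ± 0.14 (SE; edgeR adjusted p = 5.0e-07). It ran from 1.95 to 2.18 when each library was left out. Hmox1 stood at 708 ± 288 CPM in sorted cells and 98.5 ± 126 CPM in tumours, a log2 difference of 2.85 ± 0.76 (edgeR adjusted p = 0.0123) that was 4.79 ± 0.41 without shNC tumour replicate 1. Slc40a1 had 68 counts in the shNC sorted libraries and 2 in the shNC tumours, a ratio per scaled library of 42.3 with an exact 95% interval of 11.3 to 356, which covers counting error only.

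Ftl1 was higher in sorted cells by a log2 difference of 0.58 ± 0.18 (edgeR adjusted p = 0.0258), a call lost without shNC sorted replicate 2 or 3 or without shNC tumour replicate 6. It was 1.04 ± 0.22 with all light chain listings summed. Nqo1 was the one member that passed the threshold as lower in sorted cells, at 11.1 ± 1.19 against 23.5 ± 5.40 CPM, a log2 difference of -1.09 ± 0.18 (edgeR adjusted p = 5.7e-04). Gclc and Gclm gave -0.57 ± 0.23 and -0.61 ± 0.28 (edgeR adjusted p = 0.083 and 0.116), and -0.16 and -0.09 without shNC tumour replicate 1. Without shNC tumour replicate 2 they were -0.75 and -0.83 and passed the threshold (edgeR adjusted p = 0.0267 and 0.0309). Txnrd1, Srxn1 and Tfrc gave -0.14, 0.08 and 0.10, each within 1 SE of 0. All 11 tested genes of heme breakdown and transport were higher in sorted cells, with a median log2 difference of 0.59 beside -0.01 for all genes. Of them 5 passed the threshold (all genes 20.3% higher), a count of 3 without shNC sorted replicate 3 or shNC tumour replicate 6. Of 20 iron genes 6 passed as higher and 4 as lower (all genes 20.3% and 13.1%), the latter 2 without shNC sorted replicate 1 or 2. Of 19 other NRF2 targets 4 passed as higher (8 without shNC tumour replicate 1) and 3 as lower, near the shares of all genes (20.3% and 13.1%). Of 9 NRF2 regulators 1, Nfe2l2, passed as higher (all genes 20.3%), a call lost without any 1 of 4 of the shNC libraries. Slc11a1, the iron transporter of macrophage phagosomes, was at 99.0 to 151 CPM in shNC sorted cells and 0.106 to 1.72 CPM in shNC tumours, in the same direction as the macrophage list.

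Further genes of these pathways were followed as 6 lists, and 0 of their genes passed the edgeR threshold in either knockdown comparison. Of the NRF2 regulators, 7 of 9 had a higher level in shFgf21 sorted cells, 5 of 9 without overlap (all genes 14.5%), and the list median was 0.20 on the log2 scale beside -0.01 for all genes. Mafk, a small MAF partner of NRF2 and BACH1, was at 150, 114 and 119 CPM in shNC and 194 and 186 CPM in shFgf21, a log2 fold change of 0.57 ± 0.13 (edgeR adjusted p = 0.219, DESeq2 adjusted p = 0.0141). Bach1 was at 73.8, 60.6 and 80.3 against 119 and 94.5 CPM, a log2 fold change of 0.58 ± 0.15 (edgeR adjusted p = 0.266). Nfe2l2, which encodes NRF2, was at 119, 119 and 127 against 132 and 149 CPM, and Keap1 at 56.7, 65.6 and 59.5 against 48.8 and 58.5 CPM. In tumours the regulators showed 0 of 9 without overlap, and Bach1 was at 135, 51.6 and 59.1 against 103, 97.2 and 108 CPM, so shNC replicate 1 again held the highest level.

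Among 19 tested other NRF2 targets, 8 were higher and 11 lower in shFgf21 sorted cells, with a median of -0.02. In tumours 9 were higher and 10 lower, with a median of -0.06 that was 0.07 without shNC replicate 1. Cbr1, a carbonyl reductase, was at 5.48, 11.2 and 8.75 against 13.6 and 15.4 CPM in sorted cells, and Gsr, glutathione reductase, at 71.9, 75.5 and 95.8 against 59.9 and 66.5 CPM (edgeR adjusted p = 0.362 and 0.416). Slc7a11 in tumours was at 71.6, 28.3 and 46.3 against 17.9, 29.5 and 27.0 CPM, a log2 fold change of -0.97 ± 0.33 with overlapping groups (edgeR adjusted p = 0.670). Aox1, an aldehyde oxidase, was lower without overlap in shFgf21 tumours, at -0.45 ± 0.15 (edgeR adjusted p = 0.670).

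Of 18 tested iron genes, 14 were lower in shFgf21 tumours, 6 of them without overlap (all genes 6.19%), and the list median was -0.15 on the log2 scale beside -0.01 for all genes. Cp, the ferroxidase ceruloplasmin, was at 152, 89.8 and 107 against 75.2, 83.1 and 83.4 CPM, a log2 fold change of -0.53 ± 0.19 (edgeR adjusted p = 0.728). In 10 of the 18 genes the highest tumour was shNC replicate 1 (all genes 18.7%), and the list median without that library is not given here. In sorted cells 13 of 20 iron genes were higher and 7 lower, with a median of 0.04. Hfe, which binds the transferrin receptor, was at 37.1, 29.5 and 39.6 against 44.0 and 49.3 CPM (log2 fold change 0.40 ± 0.15, edgeR adjusted p = 0.390).

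The heme lists were near the background. Heme synthesis had a median of -0.05 in sorted cells and 0.01 in tumours, and Alas1, its first enzyme, had log2 fold changes of 0.08 ± 0.11 and -0.01 ± 0.18. Urod, a decarboxylase of that pathway, was lower without overlap in shFgf21 tumours by -0.19 ± 0.14. In heme breakdown and transport, Hmox2, the constitutive heme oxygenase, gave 0.33 ± 0.20 in sorted cells and -0.00 ± 0.19 in tumours. Blvrb, a biliverdin reductase, gave 0.26 ± 0.17 and 0.02 ± 0.21, and Slc48a1, a lysosomal heme exporter, gave 0.20 ± 0.27 and -0.25 ± 0.26. Flvcr1, a heme exporter of the plasma membrane, was at 17.4, 11.8 and 17.2 against 16.8, 41.5 and 36.9 CPM in tumours, with overlap (log2 fold change 1.04 ± 0.32, edgeR adjusted p = 0.640). Of 15 general antioxidant enzymes, 8 were higher and 7 lower in sorted cells. Prdx6, a peroxiredoxin, was lower without overlap in both kinds, by -0.41 ± 0.10 in sorted cells (edgeR adjusted p = 0.256, DESeq2 adjusted p = 0.0497) and -0.27 ± 0.13 in tumours (edgeR adjusted p = 0.810).

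The remaining pathway genes with the smallest p-values did not pass the threshold either. In sorted cells Ppox, an enzyme of heme synthesis, gave a log2 fold change of 0.17 ± 0.14, Lrp1, a receptor for heme bound to hemopexin, 0.29 ± 0.13, and Sod2, the mitochondrial superoxide dismutase, 0.30 ± 0.10. In tumours Uros of heme synthesis gave 0.22 ± 0.21, Cul3, the ligase scaffold used by KEAP1, 0.16 ± 0.21, Hp -1.34 ± 0.88 and Sod1, the cytosolic superoxide dismutase, 0.21 ± 0.15. Ncoa4, the ferritin receptor of autophagy, gave -0.63 ± 0.52 in sorted cells and -0.25 ± 0.67 in tumours.

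**Figure D5:**
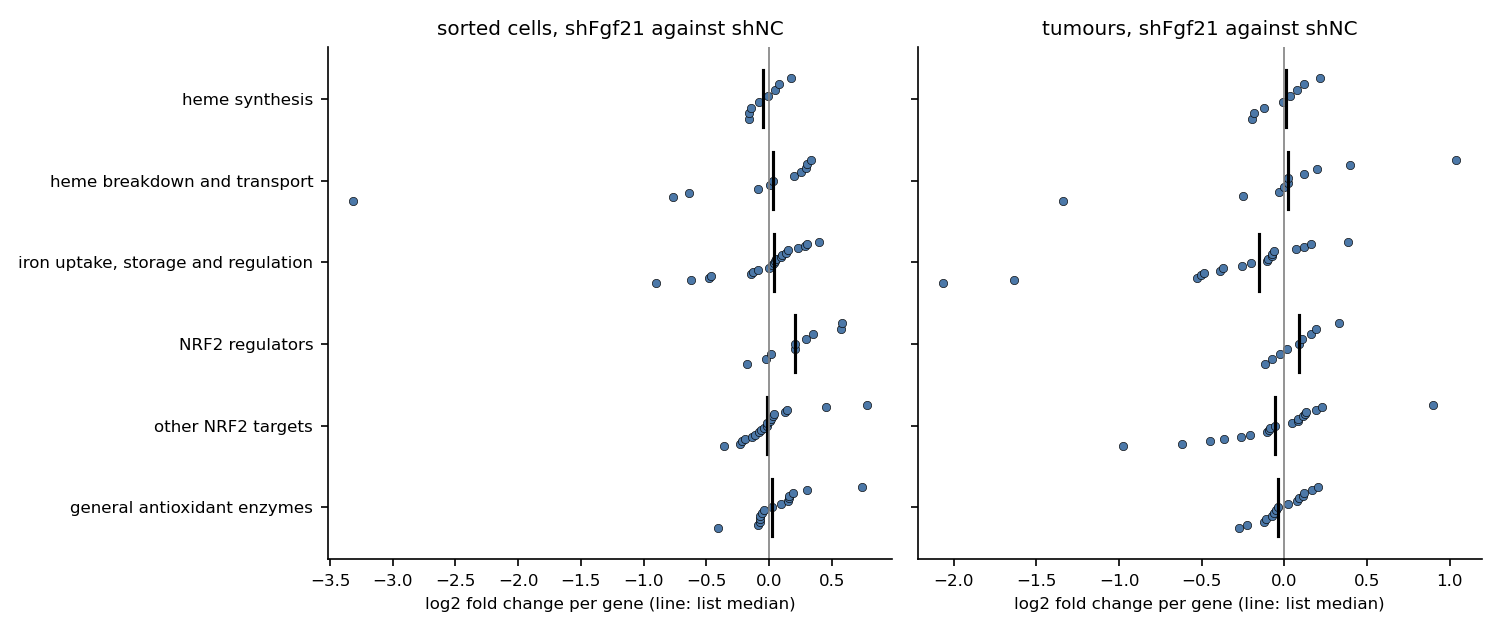
Log2 fold change of each tested gene of the 6 pathway lists, shFgf21 against shNC, in sorted cells (left) and tumours (right), with a vertical line at each list's median. The NRF2 regulator median lies at 0.20 in sorted cells and the iron list median at -0.15 in tumours, and no gene passed the edgeR threshold.

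The genes whose pattern was most like each member were found over the 11 libraries by the root mean square difference of log2 CPM after centring, among genes with a mean of at least 10 CPM. For Hmox1 they were Igf1 (0.519), Slfn5 (0.577) and Gas6 (0.605). For Tfrc they were Csf2 (0.299), Specc1 (0.301) and Gm4841 (0.306), and for Fth1 Kif21b (0.163), Plekho1 (0.171) and Ctsa (0.181). No gene is given for Slc40a1, since it had 0 counts in 5 of 6 tumours and the offset of 0.5 CPM added before the log2 step set much of its pattern. For Gclm the list was Gpat3 (0.153), Gclc (0.161) and Lonrf1 (0.163), so its partner subunit ranked second among the genes compared. In the other direction, Gclm was not among the 3 closest to Gclc. Both subunits were highest among tumours in shNC replicate 1, and the part of that library in the match was not tested. Gclc was closest to Syncrip (0.125), Ftl1 to Ccdc9 (0.0834), Txnrd1 to Ythdf1 (0.0955), Srxn1 to Nol7 (0.105) and Nqo1 to Cd109 (0.109). These distances are descriptions over libraries that share group and kind, and a member that varies little is close to many genes.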

How the data were processed

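The deposited table held raw counts per gene for 11 libraries, made by the authors with an aligner and counter not given in the sources used here, on mm10 per the submitters' processing notes. The same table held FPKM values, which the authors scaled by gene length and library size, and these were used only to compare levels between genes. Genes were tested on the counts with edgeR 4.0.16 in R 4.3.3 (quasi-likelihood F test, TMM scaling, filterByExpr, Benjamini-Hochberg adjustment, threshold 0.05), within sorted cells and within tumours, and over all 4 groups for the interaction and for shNC sorted cells against shNC tumours. CPM was scaled within sorted cells or within tumours unless stated, and marker sums were divided by the library total. A standard error is the log2 fold change divided by the root of the F statistic. DESeq2 1.42.0, limma 3.58.1, other filters and scaling, and leaving out each library were alternatives, and the procedure was tested on simulated data. Of the 4 groups, all were assigned from the labels. The 10 genes, the pathway lists and the marker lists were chosen with earlier results of these data known. Named pathway genes were a standing set and the 2 with the smallest p per list and comparison. No batch is given in the labels, and any Fgf21 difference was below what the depth could show.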

Additional observations from a re-analysis of the deposited data

How the results depend on the processing

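In sorted cells 13 genes passed the threshold, against 246 by DESeq2, 1 with all 4 groups in one fit, 1 with no filter on low counts, and 0 to 34 when each library was left out (highest without shNC replicate 3, lowest without shFgf21 replicate 2). In tumours 5 genes passed, against 115 by DESeq2, 26 with all 4 groups in one fit, 21 by limma voom, 1 with a mean of at least 5 CPM, and 0 to 8 when each library was left out (highest without shNC replicate 1, lowest without shNC replicate 6 or shFgf21 replicate 3). For the interaction 1 gene passed, against 33 by DESeq2, 3 by limma voom, 4 with no filter, 0 with a mean of at least 5 CPM, and 0 to 4 when each library was left out. The cause of these differences was not tested. The count among the 10 genes stayed at 0 in sorted cells and for the interaction under every alternative run. In tumours it was 1 by DESeq2 (Tfrc) and 1 with the title number as a replicate block (Hmox1). Between shNC sorted cells and shNC tumours it was 5, and 4 to 7 when each library was left out. Bach1 in that comparison was -0.03 on the log2 scale, and 0.53 without shNC tumour replicate 1 (edgeR adjusted p = 0.0169) and -0.27 without shNC tumour replicate 2.

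The tumour numbers 1 and 2 are shared by both groups, and the labels do not say whether they pair the samples. Deviations from the group mean correlated at 0.149 for number 1 and -0.217 for number 2 over 11186 genes. Pairs of unlike numbers ran from -0.297 to 0.195. With 2 such pairs and groups of 3, these correlations cannot show whether the samples are paired. With the replicate block 131 genes passed, and Hmox1 was at -1.62 ± 0.34 (edgeR adjusted p = 6.4e-04). That fit rests on numbers 1 and 2 alone, since numbers 6 and 3 occur in 1 group each. Number 1 includes shNC replicate 1, the library with high Hmox1, so this call is weak. Summing the ferritin light chain listings was chosen after seeing the data, the near-identical listing limits Ftl1, and Slc40a1 rests on 2 counts in tumours.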

Other observations

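A few genes of the pathway lists had libraries far from their own group, and these were picked out after their values were seen. Ncoa4, the receptor that delivers ferritin for autophagy, was at 4.99 CPM in shFgf21 sorted replicate 1, 3.83 CPM in shNC tumour replicate 6 and 3.23 CPM in shFgf21 tumour replicate 3, while the other 8 libraries held 15.1 to 25.3 CPM of it. Gpx1, a glutathione peroxidase, was at 451 CPM in shFgf21 sorted replicate 2 and 183 to 209 CPM in the other sorted libraries. In tumours Gpx1 was at 123 CPM in shFgf21 replicate 2 and 227 to 287 CPM in the others. Flvcr1 in sorted cells was at 38.2, 13.4 and 39.5 CPM in shNC and 18.1 and 17.6 CPM in shFgf21.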
